A study of Homo sapiens with 32 samples.

Results

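The m6A positions described here were listed in thapsigargin-treated HEK293T cells with phosphomimetic eIF3d and in none of the other 3 conditions of the study. A site was taken when its chromosome, start, end and strand matched no entry of the other 3 lists, with mitochondrial sites and duplicate entries left out. This gave 2831 sites, which were 65.0% (95% Wilson interval 63.6 to 66.4) of the 4356 nuclear sites of their own list and part of 6267 different nuclear sites in all 4 lists. The sites were thus chosen by their listed positions, so the counts over lists are a description and were not tested.

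HEK293T is a transformed line from human embryonic kidney. Cells had either wild-type eIF3d (WT) or eIF3d with the S528D and S529D changes (DD), in which aspartate stands in for phosphorylated serine, and each genotype received 600 nM thapsigargin (Tg) or an equal volume of DMSO for 16 h. The m6A-eCLIP experiment had 16 libraries, 2 immunoprecipitates and 2 inputs for each genotype and treatment, from which 1 site list per genotype and treatment was used here. Poly(A) RNA-Seq had 2 libraries for each of the same 4 conditions. Subunit-Seq, which recovers RNA held by the cap-binding domain of eIF3d, had 2 inputs and 2 immunoprecipitates (IP) for DMSO and for Tg, all from cells of genotype HA-eIF3d-TEV and none from DD cells. The labels do not say whether a line came from 1 clone, whether native eIF3d was still made, or whether libraries of a group came from separate cultures. P-values thus measure only the spread between these libraries, shared across genes in part for RNA-Seq and fully for Subunit-Seq.

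N6-methyladenosine is written into mRNA mainly by the METTL3 and METTL14 methyltransferase complex, at adenosines within the motif DRACH (D is A, G or T; R is A or G; H is A, C or T), and is read by YTH domain proteins. A related mark, N6,2′-O-dimethyladenosine or m6Am, lies on a first transcribed adenosine next to the cap and is made by PCIF1. Antibodies against m6A also bind m6Am. Under ER stress the unfolded protein response raises chaperones such as BiP (HSPA5), and phosphorylation of eIF2 lowers most translation while favouring mRNAs such as ATF4.

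RefSeq sequence of GRCh38.p14 was at hand for windows of 300 bases around gene starts, 250 before and 50 from the first transcribed base on. Within these 34943 windows lay 198 of the 2831 sites (6.99%, interval 6.11 to 7.99). In all 192 that were 1 base wide the listed base was A, and in 4 of 6 wider ones every base was A. The 11 sequences shown first are stretches of at most 30 bases, 5′ to 3′ on the RNA's strand, whose capital is the listed A and also the first transcribed base. They are shown because more sites stood at the first transcribed base than at any other offset. A window starts at 1 RefSeq transcript, which for HSP90AA1 begins 52705 bases inside the gene's span. The first 5 carry the letters CCATT with the listed A in the middle:
H2BC12: ccttgctcccAttacttcccgttttctcga
SNRPD3: taggcccgccAttcgcttgactcacgcctt
SRSF6: cgcgcgcgccAttgtgtggctggactcggc
SMC4: tttaggcgccAttttcgagtgaaggacccg
OGT: cgtcgccgccAtttcaagaccgtactaggt

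They lie at chr6:27146855-27146855 (minus strand), chr22:24555999-24555999 (plus), chr20:43457896-43457896 (plus), chr3:160399650-160399650 (plus) and chrX:71533104-71533104 (plus). H2BC12 encodes a histone H2B, SNRPD3 a core protein of spliceosomal snRNPs, SRSF6 an SR splicing factor, SMC4 a condensin subunit and OGT the O-GlcNAc transferase. The next 4 carry TCAGT, again with the listed A in the middle:
HSP90AA1: gtggcgcgtcAgttgcttcagcgtcccggt
NCL: ctttcgcctcAgtctcgagctctcgctggc
MAGOH: cgcaaacgtcAgtgtcgggcgcagacggcg
NORAD: ctgccaagtcAgttccggtccggcagagat

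These are at chr14:102087044-102087044, chr2:231464484-231464484, chr1:53238518-53238518 and chr20:36050960-36050960, all on the minus strand. HSP90AA1 encodes the stress-inducible HSP90, NCL nucleolin and MAGOH an exon junction complex subunit, and NORAD is a long noncoding RNA that binds Pumilio proteins. The other two have other letters around the A:
PMAIP1: cggggatctcAgagtttcccgggcactcac
AARS1: tgaggccggtAcagctgcgcgtctgcggga

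They are at chr18:59899996-59899996 (plus) and chr16:70289506-70289506 (minus). PMAIP1 encodes the pro-apoptotic protein NOXA and AARS1 the alanyl-tRNA synthetase.

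**Figure D1:**
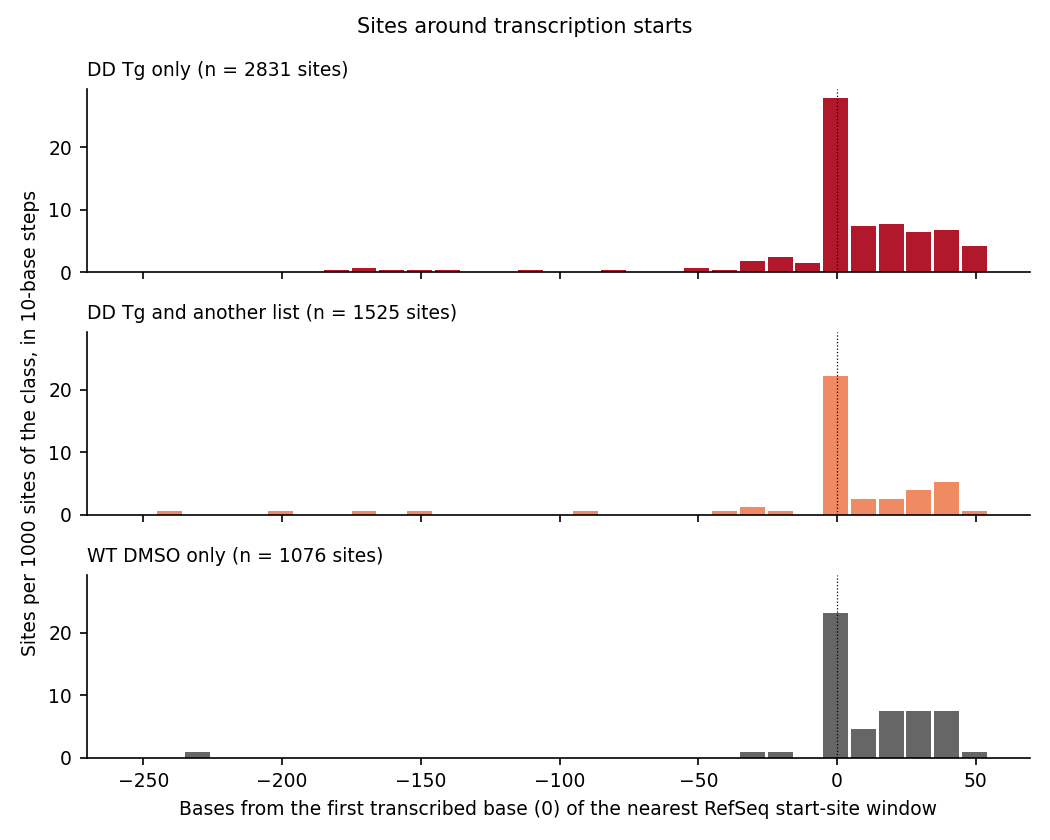
Sites per 1000 sites of a class (y axis) against their distance in bases from the first transcribed base of the nearest RefSeq start-site window (x axis, 10-base steps, dotted line at the first base). The step from 5 bases before to 4 bases after the start is the highest in all 3 classes, with 27.9 per 1000 for the sites only in DD Tg, 22.3 for DD Tg sites shared with another list and 23.2 for sites only in WT DMSO.

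Of the 2831 sites, 55 (1.94%, interval 1.496 to 2.520) covered a first transcribed base. The same share was 1.11% (17 sites, 0.697 to 1.78) among the 1525 DD Tg sites shared with another list and 1.12% (12 sites, 0.639 to 1.94) among the 1076 sites only in WT DMSO. It was 1.81% (7 of 387) among sites only in DD DMSO, 0.346% (1 of 289) among those only in WT Tg, and 1.08% (0.782 to 1.48) over all 3436 other sites. The last interval does not reach that of the sites only in DD Tg, while those of the single classes overlap it. Intervals cover counting error only and no test was made, because sites of 1 gene are not independent. Within 5 bases of a start lay 80 of the 198 window sites, 91 lay farther inside the RNA and 27 farther upstream. A window ends 50 bases into the gene, so the sequence of the other sites was not used here.

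The base before the listed A was C in 43 of the 55 (78.2%) and T in the other 12. CCATT was present in 9 (16.4%, interval 8.86 to 28.3) and NCAGT, which takes in TCAGT, in 16 (29.1%, 18.8 to 42.1), both searched on the listed strand only and without overlap between them. Of all 34943 windows, 15520 (44.4%) begin the RNA with A, and among those C came before the A in 66.7%, CCATT stood there in 1.78% and NCAGT in 11.8%. Over all windows, whatever their first base, CCATT was at the start of 0.793%. The shared DD Tg sites at a start had CCATT in 2 of 17 and NCAGT in 5 of 17, and the sites only in WT DMSO had 1 of 10 each. A match is a description of letters and says nothing of which enzyme made a mark.

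DRACH, searched on the listed strand, was rare at these sites. It was centred on the listed A in 5 of 191 (2.62%, interval 1.12 to 5.98), against 7.25% of all A bases in the windows. All 5 lay more than 5 bases from a start, where they made up 4.50% of 111 sites. None of the 80 sites within 5 bases of a start had it, which allows a share of up to 4.58% by the same interval. Shared DD Tg sites had DRACH in 2 of 66 (3.03%) and sites only in WT DMSO in 8 of 57 (14.0%, 7.29 to 25.3), whose interval lies above that of the sites only in DD Tg. Sites only in DD DMSO had it in 0 of 20 and sites only in WT Tg in 0 of 8, and all 156 sites of the other classes together in 11 (7.05%, 3.98 to 12.2), whose interval overlaps. A DRACH match with its A within 5 bases of the listed position was found for 22 of 191 (11.5%). The 3 sites shown next hold the motif at the listed A, and stand 9 (PSMB4), 43 (GLO1) and 40 (GALK2) bases into the RNA:
PSMB4: tgctaccgtgActaagatggaagcgttttt
GLO1: agtgtgggtgActcctc
GALK2: ggcaactgggAcatcgtccg

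They are at chr1:151399582-151399582 (plus), chr6:38703102-38703102 (minus) and chr15:49155814-49155814 (plus). PSMB4 encodes a proteasome subunit, GLO1 glyoxalase I and GALK2 an N-acetylgalactosamine kinase. For contrast, 2 sites inside the RNA of stress-related or m6A-related genes lack the motif. HNRNPC, an RNA-binding protein that reads m6A-dependent RNA structure, had its site 18 bases in at chr14:21269424-21269424 (minus), again in the letters CCATT, and PSAT1, a serine synthesis enzyme and target of ATF4, had one 39 bases in at chr9:78297164-78297164 (plus):
HNRNPC: ctcgggggccAttttgtgaagagacgaaga
PSAT1: ccagccgttcAcgcgttcggt

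**Figure D2:**
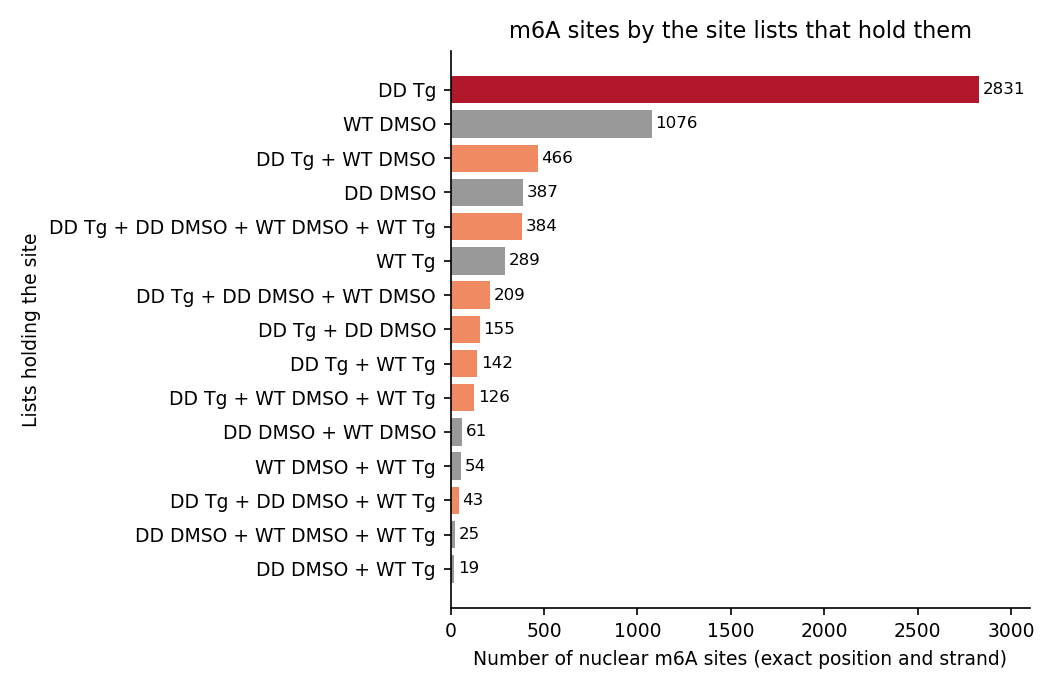
Number of nuclear m6A sites (x axis) for each combination of lists that hold the exact position (y axis); red is the class described, orange the DD Tg sites found in another list and grey the sites absent from DD Tg. The 2831 sites only in DD Tg are followed by 1076 only in WT DMSO and 466 in DD Tg and WT DMSO.

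The 4 lists differed in length, with 4356 nuclear sites in DD Tg, 2401 in WT DMSO, 1283 in DD DMSO and 1082 in WT Tg. The share of a list found nowhere else was 65.0% in DD Tg, 44.8% in WT DMSO, 30.2% in DD DMSO and 26.7% in WT Tg, which is the order of the list lengths. The lists hold no score, coverage or replicate, so the depth behind a site, and whether a site missing from a list was tested there, are unknown. Of the 1525 shared DD Tg sites, 384 were in all 4 lists and 466 in WT DMSO only, against 155 in DD DMSO only and 142 in WT Tg only.

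Most of the 2831 sites lay far from any other listed site. Only 65 overlapped a site of another list with other ends, 281 (9.93%) lay within 10 bases of one on the same strand, 608 (21.5%, interval 20.003 to 23.027) within 50 bases and 1119 (39.5%) within 1000 bases. The share within 50 bases was 32.2% (29.5 to 35.1) for sites only in WT DMSO, 40.1% for those only in DD DMSO and 23.5% for those only in WT Tg. The other lists together hold fewer sites in the case of DD Tg than for any other list, and the part of this in the shares was not tested. Among themselves, 458 of 2783 neighbouring pairs (16.5%) were within 50 bases of each other.

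In width 2634 sites (93.0%) were 1 base, 174 were 2 bases and 23 were wider. All but 2, which were on alternate or unplaced sequences, fell on 23 chromosomes, most on chromosome 1 (254), 19 (250) and 6 (179). RefSeq gene spans, which give no exons, introns or UTRs here, held 1775 (62.7%, interval 60.9 to 64.5) on the gene's own strand. Another 972 lay in genes whose strand was not given, 28 on the opposite strand and 56 in no gene. Where the strand was given, 98.4% (1775 of 1803) matched it. Within 1000 bases of the gene's end lay 31.9% (29.8 to 34.1) of the 1775, within 1000 bases of its start 21.5%, and farther than that from both 50.5%. Shared DD Tg sites had 30.3% near the end and sites only in WT DMSO 26.6%.

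The 1775 sites were in 1168 host genes, of which 1122 were protein-coding and 46 lncRNA genes. No other list had a site on the gene's strand in 816 of these (69.9%), and 352 had both kinds. One site was the usual number (867 genes), while 191 genes had 2, 110 had 3 or more and 39 had 5 or more. A microRNA hairpin held a site in 2 cases, MIR3654 within CHCHD3 on the site's strand and MIR762 within BCL7C on the other strand.

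Genes with more RNA more often held a site. RPKM is reads scaled to gene length and library size, averaged here over the 8 RNA-Seq libraries. Of genes with a known strand and at least 1 RPKM, 941 of 6827 (13.8%) were hosts. The share was 7.81% (325 of 4164, interval 7.03 to 8.66) at 1 to 5 RPKM, 16.6% (297 of 1793) at 5 to 20, 30.3% (208 of 687) at 20 to 100 and 60.7% (111 of 183, 53.4 to 67.4) at 100 or more. Sites only in WT DMSO followed the same order, from 2.98% to 41.5%, and so did shared sites, from 2.62% to 42.6%. Hosts without a site of another list had a median of 4.66 RPKM, hosts with one 17.0, genes with sites of other lists only 4.26 and genes without a site 0.212. A further 194 hosts were below 1 RPKM, where an overlapping gene may hold the reads, as with EIF4A1 (4 sites, 0 to 0.339 RPKM), whose sites also lie in the readthrough gene SENP3-EIF4A1.

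**Figure D3:**
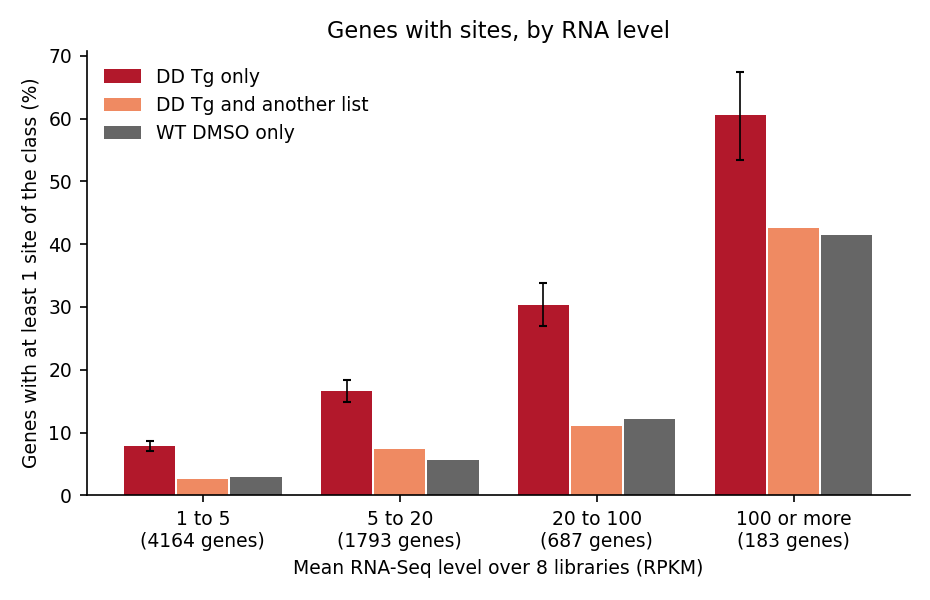
Percent of genes with at least 1 site of a class (y axis) by mean RNA-Seq level in RPKM (x axis, 4 ranges with the number of genes); bars are the 3 site classes and error bars the 95% Wilson intervals for sites only in DD Tg. The share rises from 7.81% to 60.7% for the sites only in DD Tg and rises in the other classes too.

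Ribosomal protein genes held the largest group of the sites. They make the protein part of the ribosome, and 48 of 63 with a known strand had 246 sites between them (80% of the 60 at 1 RPKM or more, beside 13.8% of all such genes). Those 60 had a median of 801 RPKM, and 60.7% of genes at 100 RPKM or more were hosts. The 13.8% set beside this and later lists is not matched for RNA level. Only 4 of the 48, RPL39, RPL41, RPS7 and RPS25, had no site of another list. RPL13 (chr16:89560657-89566829) had 21 sites, between 318 and 2452 bases from its start, and 20 of the 21 were within 50 bases of another list's site. RACK1, a scaffold protein of the small ribosomal subunit that was not on the list, had 18, and RPS6, RPS4X and RPL32 had 14 each. Of the 246, 181 (73.6%, interval 67.7 to 78.7) were within 50 bases of a site of another list, beside 21.5% of all 1775. The group's share of same-strand sites was 13.9% in sites only in DD Tg, 14.5% in shared sites and 19.1% in sites only in WT DMSO. Processed pseudogenes copy many of these mRNAs, and how reads with several matches were placed is not given in the sources used here.

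Elongation factors and other mRNAs of the same translation machinery followed. EEF2, the ribosomal translocase, had 19 sites and TPT1, a growth-related protein, 17. In the list 5 of 7 genes had 44 sites (66.7% of 6 measured at 1 RPKM or more, beside 13.8%). Its median level was 352 RPKM, and 60.7% of genes at 100 RPKM or more were hosts. Of the 44 sites 30 (68.2%) were within 50 bases of another list's site, beside 21.5% of all 1775. Of 18 replication-dependent histone genes 8 had 29 sites (46.2% of 13 measured, beside 13.8%), 18 of them (62.1%) within 50 bases of another list's site. The median level of the histone list was 30.4 RPKM, and 30.3% of genes at 20 to 100 RPKM were hosts. H1-2, a linker histone, had 10, between 20 and 602 bases from its start, and H3C2 had 6. Histone genes have near-identical copies, so the assignment to 1 copy is uncertain.

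Chaperone genes held fewer sites each. Median levels of the ER chaperone, splicing and heat shock lists were 8.53 to 16.5 RPKM, and 16.6% of genes at 5 to 20 RPKM were hosts. Of 26 genes for ER chaperones and folding factors 9 had 16 sites (36% of the 25 measured at 1 RPKM or more, beside 13.8%), 7 of the 9 had no site of another list, beside 69.9% of all hosts, and 1 of the 16 sites was within 50 bases of one (6.25%, interval 1.11 to 28.3, which takes in the 21.5% of all 1775). HSPA5 (BiP, chr9:125234853-125241343, minus strand) had 4, at chr9:125236470-125236470, chr9:125236519-125236519, chr9:125236553-125236553 and chr9:125236957-125236957, which is 1617 to 2104 bases before the gene's end. The nearest site of any other list on that strand was at least 376204 bases away. ERP29, an ER folding factor, and PPIB, a proline isomerase of the ER, had 3 each, and HSP90B1, the ER form of HSP90, had 1. The list's share of same-strand sites was 0.901% (interval 0.556 to 1.46), 0.156% (1 of 643) in shared sites and 0.313% (2 of 638) in sites only in WT DMSO, and the intervals of the last 2 overlap the first.

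The SR and hnRNP list, proteins that bind pre-mRNA and guide splicing, had 13 sites in 9 of 24 genes (37.5% of the 24 at 1 RPKM or more, beside 13.8%), none within 50 bases of another list's site (interval to 22.8%). Of these 9 hosts 5 had no site of another list. HNRNPF had 3, and HNRNPM and SON had 2 each. Heat shock genes had 13 sites in 8 of 19 (47.1% of 17 measured, beside 13.8%), 1 of them that close. HSP90AA1 had 4, including the first base shown above. Other genes with several sites and none from another list were RPL36AL, C14orf119 and MBD3 with 5 each, and ANP32B and TOMM22 with 4. RPL36AL is a ribosomal protein gene that was not on the list used above.

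Genes of the integrated stress response held few sites each. Its transcription factors had 6 in 4 of 7 genes (57.1%, beside 13.8%), namely 2 in CEBPG, 2 in NFE2L2, 1 in CEBPB and 1 in ATF4, which also had 3 sites of other lists. The ATF4 site at chr22:39521938-39521938 lay 748 bases before the gene's end and 198 bases from the nearest of those. Targets of the response had 14 in 10 of 27 (37.5% of 24 measured, beside 13.8%), among them 3 in SLC1A5, a glutamine transporter, 2 each in PSAT1 and ASNS (asparagine synthetase), and 1 in TRIB3, a pseudokinase that restrains the response. Of these 10 hosts 5 had no site of another list. The target list held 0.789% of same-strand sites only in DD Tg, 1.24% of shared ones and 1.25% of those only in WT DMSO. These intervals overlap. Median levels were 20.3 RPKM for the transcription factors and 12.2 for the targets. Of genes at 20 to 100 RPKM 30.3% were hosts, and of genes at 5 to 20 RPKM 16.6%. The start-site A of PMAIP1 was its only site, and XBP1, the factor spliced by IRE1, also had 1. The list of XBP1, sensors of the unfolded protein response and ER-associated degradation genes, had 2 sites in 2 of 20 genes. That was 10.5% of 19 measured, under the 13.8% of all genes, at a median level of 3.33 RPKM. JUN, an AP-1 subunit, had 4 sites and JUND 1. DDIT3, the kinase gene EIF2AK4 and every other gene of the list of kinases and eIF2 phosphatases with a known strand (0 of 8) had none, while EIF2AK1, whose strand was not given, held 2 positions. Calcium handling genes with a known strand had none (0 of 13). Of these 13 genes 5 reached 1 RPKM, and of the 8 kinase and phosphatase genes 7 did. Their medians were 2.73 and 4.51 RPKM, and 7.81% of genes at 1 to 5 RPKM were hosts, so these counts of 0 say little.

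Among genes of the m6A pathway, readers of known strand had 4 sites in 4 of 11 (40% of 10 measured, beside 13.8% of all measured genes), 1 each in YTHDF1, YTHDF2, HNRNPC and HNRNPA2B1. IGF2BP1, a reader whose strand was not given, held 2 further positions. Median levels of the reader list and of the cap-binding list below were 5.26 and 6.22 RPKM, and 16.6% of genes at 5 to 20 RPKM were hosts. Writers had 2 in 2 of 11 (22.2% of 9 measured), WTAP and RBM15, subunits of the methyltransferase complex, while METTL3, METTL14 and the demethylase ALKBH5 had none. EIF3D itself had 4 sites of other lists and none of these, and of the 8 eIF3 genes with a known strand EIF3I had 1. Among 6 eIF3 genes without a given strand, EIF3G held 2 positions and EIF3A and EIF3E 1 each. Cap-binding and eIF4 factors of known strand had 9 in 5 of 15 (33.3% of 12 measured, beside 13.8%), including 2 in EIF4G1, the scaffold of the cap complex. EIF4EBP1, which restrains eIF4E and whose strand was not given, held 12 positions, more than those 9 together, and 9 positions of other lists.

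RNA-Seq libraries held between 4508228 and 10162095 reads, recovered from the steps of the low values, and Subunit-Seq libraries between 5102476 and 16856142. Mitochondrial ribosomal RNA took 25.4% to 57.3% of the RNA-Seq reads, the most in the second DD Tg library. In Subunit-Seq it took 19.9% and 9.41% in the Tg inputs and 0.410% and 0.286% in the Tg IPs. The part of this in the differences between IP and input was not tested. HEK293T markers summed to 150 to 210 RPKM in the libraries numbered 1 and 45.5 to 77.7 in those numbered 2 (8 of 12 at 1 RPKM or more; NEFM 31.9 to 62.2 against 0.0693 to 1.23). Other members did not share that order, with KRT18 at 12.03 to 17.2 against 6.84 to 36.1 and KRT8 at 1.36 to 2.27 against 0.221 to 6.82. Markers of other cell types summed to 22.8 to 31.3 against 1.07 to 2.78, of which COL1A1 and COL1A2 alone reached 1 RPKM, and PTPRC, CD3E, HBB, CDH5 and LYZ were at 0 in all 8. EIF3D, with reads of the native gene and of any introduced copy counted together, was 68.3 and 69.6 RPKM in WT DMSO, 44.3 and 91.2 in WT Tg, then 37.5 and 76.6 in DD cells with DMSO and 64.3 and 29.2 with Tg.

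Whether hosts of the sites changed in RNA level was asked with 3 contrasts, fitted with limma on log2(RPKM + 1) over 9637 genes. No gene was called (0% at an adjusted p under 0.05) for Tg against DMSO in DD cells, for DD against WT under Tg or for their interaction, and at an unadjusted p under 0.05 there were 25, 82 and 21 genes, of which 0, 4 and 0 were among the 941 hosts. The median log2 difference of hosts was -0.03 for Tg in DD cells (all genes 0.02), -0.02 for DD against WT under Tg (all genes 0.05) and -0.17 for the interaction (all genes -0.10). Relative to all genes the replicate numbers went opposite ways: 0.09 and -0.19, 0.12 and -0.30, and 0.12 and -0.31 from libraries numbered 1 and 2. The second DD Tg library gave hosts 21.2% of its summed nuclear RPKM, while the other 7 gave 24.4% to 31.3%. Its part in the difference, and that of the marker levels, was not tested. In bulk RNA, fewer cells with a transcript and less of it per cell cannot be told apart.

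Single hosts showed the same spread. RPL13 was 1076 and 2579 RPKM in WT DMSO, 844 and 2246 in WT Tg, then 955 and 1158 in DD cells with DMSO and 983 and 349 with Tg. It was lowest in the second DD Tg library, while the first lay within the ranges of WT Tg and of DD cells with DMSO. The ranges of the other 3 groups overlapped, and the log2 difference for Tg in DD cells was -0.84 ± 0.89 (SE). HSPA5 was 72.6 and 33.4 RPKM in WT DMSO, 97.5 and 69.5 in WT Tg, then 125 and 33.2 in DD cells with DMSO and 65.9 and 58.7 with Tg. Both DD Tg values lay between the DD DMSO values.

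HSP90AA1 was 101 and 35.0 RPKM in WT DMSO, 93.7 and 33.9 in WT Tg, then 84.9 and 30.0 in DD cells with DMSO and 67.5 and 118 with Tg. The first library of a pair was the higher everywhere except in DD Tg. PMAIP1 was 89.3 and 26.4 RPKM in WT DMSO, 128 and 53.4 in WT Tg, then 38.6 and 12.6 in DD cells with DMSO and 47.4 and 18.8 with Tg. Both DD Tg values were under both WT Tg values, with a log2 difference of -1.44 that missed the threshold (adjusted p = 1, limma).

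TRIB3 was 43.0 and 69.2 RPKM in WT DMSO, 47.7 and 75.3 in WT Tg, then 52.9 and 20.95 in DD cells with DMSO and 41.6 and 8.04 with Tg, and XBP1 was 110 and 83.1, 111 and 118, 101 and 43.2 and 96.9 and 22.9 in the same order. For both genes DD Tg lay under WT Tg in both libraries, by -1.64 and -1.26 on the log2 scale, with an adjusted p of 1 in limma. ATF4 was 268 and 258 RPKM in WT DMSO, 224 and 314 in WT Tg, then 262 and 320 in DD cells with DMSO and 359 and 151 with Tg, whose values enclosed all the others.

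**Figure D4:**
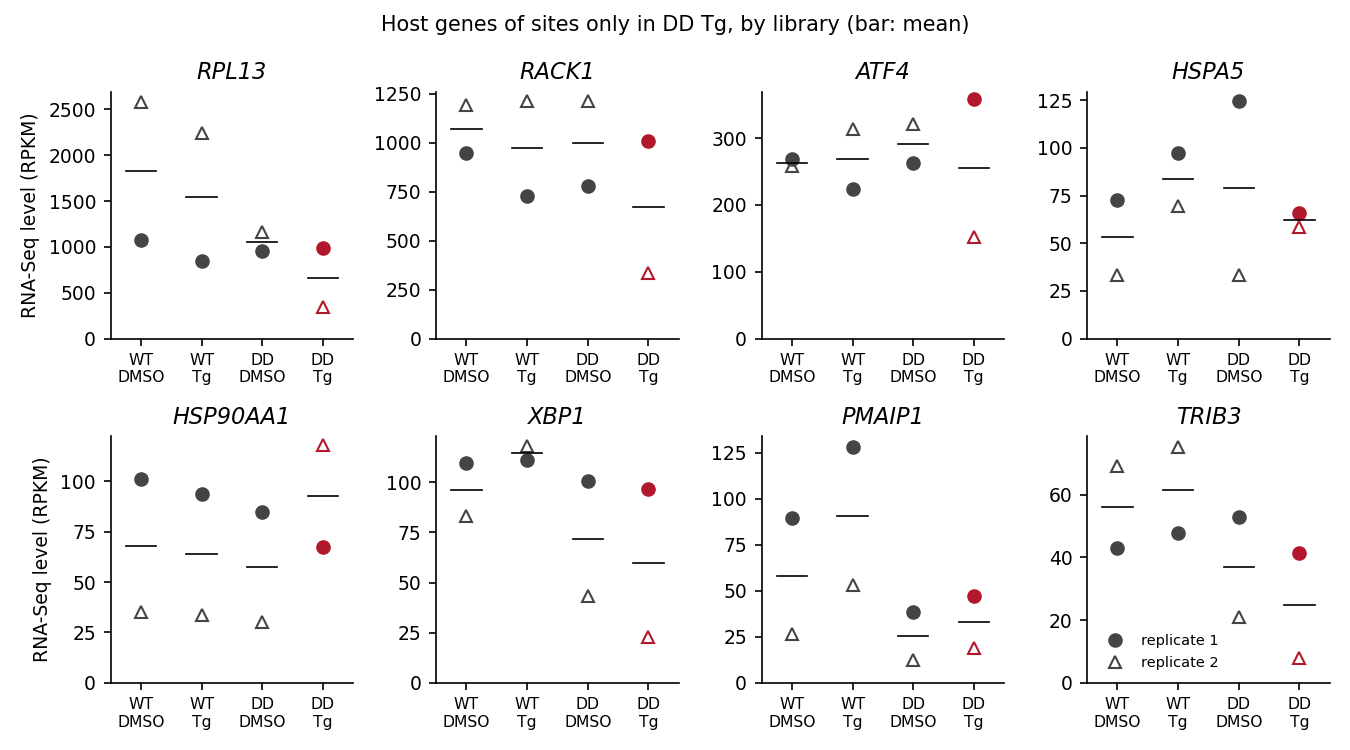
RNA-Seq level in RPKM (y axis) of 8 host genes in each library of the 4 conditions (x axis); circles are replicate 1, triangles replicate 2, bars the mean of the 2 and red marks DD Tg. RPL13, RACK1, ATF4, XBP1 and TRIB3 have their lowest value in the second DD Tg library, while HSP90AA1 has its highest there.

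Subunit-Seq was used to ask whether hosts were also recovered with eIF3d, in cells that do not carry the DD form. Under Tg, 1591 of 9813 genes (16.2%) differed between IP and input, 1432 higher (14.6%) and 159 lower (1.62%), with an all-gene median of 0.87 on the log2 scale. Hosts had 178 of 949 (18.8%), 140 higher and 38 lower (4.004%), and a median of 0.80. With each library centred on its median gene, the all-gene count became 372, 113 higher and 259 lower, and the all-gene median moved to -0.20, so directions here are relative to the deposited scale. Leaving out 1 of the 4 Tg libraries gave counts of 101 (input 1), 251 (input 2), 279 (IP 1) and 135 (IP 2), and leaving out a DMSO input 2440 (input 1) or 3227 (input 2). Hosts without a site of another list were 104 higher and 6 lower of 649 (median 0.88), while hosts with one were 36 higher and 32 lower of 300 (median 0.44). Hosts with 2 or more of the sites were 37 higher and 27 lower of 262 (median 0.42). Genes with sites of other lists only were 104 higher and 13 lower of 541.

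Of the 38 hosts that fell in the IP, 20 were ribosomal protein genes and 6 histone genes of the lists. All 6 tested histone hosts of the list were lower (median -3.17), as were 14 of 14 measured members of that list. H1-2 was 875 and 148 RPKM in the Tg inputs and 30.7 and 57.1 in the IPs, and both inputs were above both IPs (log2 difference -3.07, adjusted p = 2.28e-05, limma). H2AC20 differed by -4.81 and H1-4 by -4.66. H2AC13 was 507 and 32.1 RPKM in the inputs and 3.42 and 0 in the IPs, the last listed at 0. Ribosomal protein hosts were lower in 20 of 48 and higher in none, with a median of -0.998 (33 of 76 measured genes of the list). RPL13 was 1764 and 2640 RPKM in the Tg inputs and 633 and 979 in the IPs, without overlap (-1.45, adjusted p = 0.00468, limma), and RPL28 differed by -1.77. Without the first Tg input 1 histone host and no ribosomal protein host was called, without the first Tg IP 2 and 8, and without the second Tg input 6 and 3. EEF2 (0.28) and TPT1 (-0.38) did not pass the threshold, like all 4 elongation factor hosts tested.

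Some stress and splicing hosts rose, beside 14.6% of all genes. HSPA5 was 38.6 and 126 RPKM in the Tg inputs and 324 and 452 in the IPs, without overlap (log2 difference 2.43 ± 0.63 SE, adjusted p = 0.00305, limma). HSP90B1 differed by 2.96, and these were the 2 called of 9 ER chaperone hosts, whose median was 1.22 (10 of 28 measured genes of the list). HSP90AA1 (2.57) and HSP90AB1 were called among 8 heat shock hosts (3 of 18 measured genes of the list). Target hosts of the integrated stress response were higher in 2 of 9 (8 of 29 measured genes), with a median of 0.79 that lay under the all-gene median. The SR and hnRNP hosts were higher in 6 of 9 with a median of 2.00, SON at 3.17 (18 of 27 measured genes). Of the 4 transcription factor hosts of the integrated stress response ATF4 (1.41 ± 0.46 SE, adjusted p = 0.0249, limma) and CEBPB (2.87) were higher (3 of 7 measured genes). ATF4 was 405 and 608 RPKM in the Tg inputs and 1292 and 1349 in the IPs. With centred libraries no host of the ER chaperone, splicing, transcription factor or reader lists was called.

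JUN was 40.4 and 15.5 RPKM in the Tg inputs and 314 and 374 in the IPs, 3.72 ± 0.64 (SE) higher on the log2 scale (adjusted p = 9.23e-07, limma), and JUND was 3.38 higher. NORAD, with its start-site A, was 13.3 and 2.34 RPKM in the inputs and 108 and 75.3 in the IPs (3.72). Of all measured AP-1 genes 4 of 8 were higher. Readers were higher in 3 of 4, HNRNPA2B1 (2.37), YTHDF1 (2.08) and YTHDF2 (1.93), and in 6 of 13 measured genes of the list. The largest rise among called hosts was that of FBXO34, an F-box protein with 1 site, at 2.13 and 0.932 RPKM in the inputs and 54.7 and 135 in the IPs (5.15). EIF5B, a ribosome-joining factor with 1 site, was 3.80 and 2.77 RPKM in the inputs and 31.6 and 152 in the IPs (4.05). Every call named here was lost in at least 1 other setting, HSPA5's in 6 of 13 and ATF4's in 9 of 13, with no change of sign. PMAIP1 (1.72, adjusted p = 0.0538, limma), TRIB3 (0.17) and XBP1 (-0.16) missed the threshold.

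The IP to input difference itself changed with Tg for 6 of 9813 genes (0.0611%), all lower and none of them a host (0 of 949). At an unadjusted p under 0.05 there were 86 genes, 4 of them hosts. JUN was 49.5 and 3.87 RPKM in the DMSO inputs and 174 and 102 in the DMSO IPs, and HSPA5 was 9.06 and 13.8 against 62.7 and 158, so both were also above input without Tg.

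**Figure D5:**
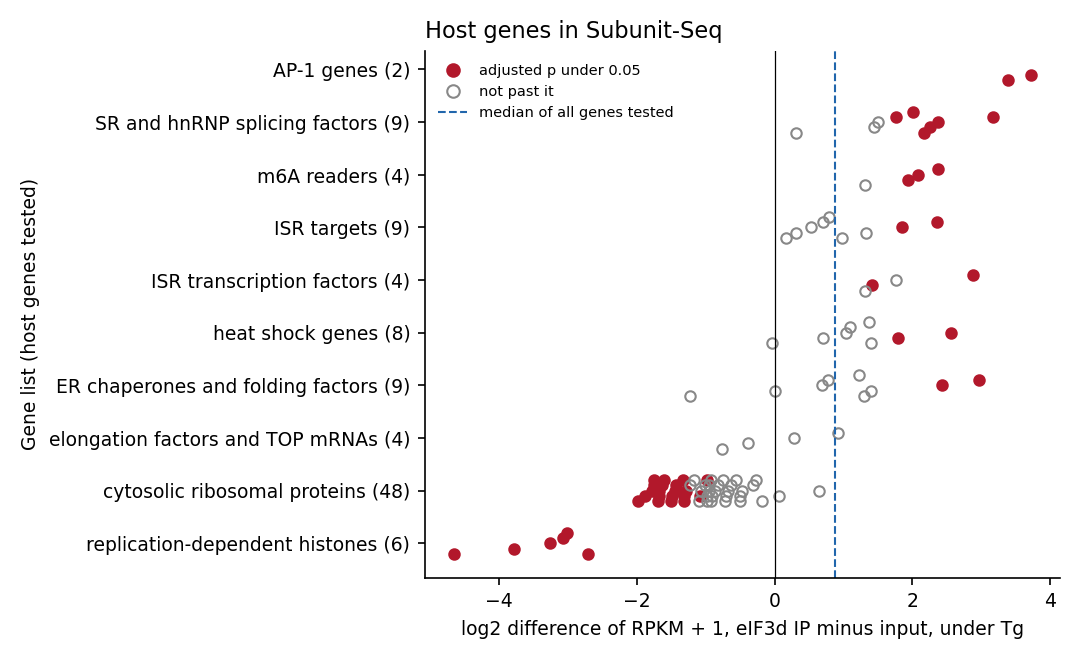
Difference between eIF3d IP and input under Tg (x axis, log2 of RPKM + 1) for host genes of 10 lists (y axis, with the number tested); filled points passed an adjusted p under 0.05 and the dashed line is the median of all genes tested, 0.87. Histone and most ribosomal protein hosts lie left of 0, and the AP-1, splicing factor and reader hosts right of it.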

How the data were processed

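The m6A-eCLIP site lists give chromosome, start, end and strand only, with no measured value. The expression values deposited by the authors are RPKM, 1 table for RNA-Seq and 1 per replicate for Subunit-Seq, so Subunit-Seq differences were fitted within a replicate. Tools listed without roles in the submitters' processing notes are BWA, cutadapt, DESeq2 and STAR, with the build GRCh38; versions, the gene counter and the site caller are not given in the sources used here.

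Duplicate and mitochondrial entries were removed and positions written 1-based. Sites were placed in RefSeq gene spans of GRCh38.p14; a strand, taken from the start-site table, was at hand for 27305 of 59792 genes (45.7%). Of 1168 host genes, 1135 (97.2%) matched the RPKM tables, by Ensembl identifier or, where that failed, by symbol. RPKM tables were analysed in R 4.3.3 with limma 3.58.1 (lmFit and eBayes with trend) on log2(RPKM + 1), which understates changes of low genes. A gene entered when its mean RPKM reached 1 across the 8 RNA-Seq libraries or the 4 Subunit-Seq inputs, and a host that passed through 1 group only can look changed. Two-sided p-values were adjusted by Benjamini-Hochberg across all genes and called under 0.05. Residual degrees of freedom were 4 for RNA-Seq (prior 5.73) and 3 for Subunit-Seq (prior infinite). With an infinite prior each gene's own spread is replaced by a value shared by genes of like level. Subunit-Seq SEs and p-values therefore do not measure the spread of the single gene named. The models were run on simulated data with 200 changed genes. Libraries there were set to vary less than RPL13 or HSPA5 did here, so that run does not tell what these data could detect. Python 3.11.15 did the rest. Intervals are 95% Wilson intervals.

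The sites, gene lists and tests were chosen with earlier results of these data known. Named genes were EIF3D, the 10 genes with most sites, the 10 with most among those without a site of another list, up to 4 genes per list by sites, called hosts with the largest differences, genes with a site at a start, and ATF4, DDIT3, JUN, ALKBH5, METTL3, METTL14, HSPA5 and EIF2AK4; the text prints part of them. Genes named outside that rule, such as RPL39, SRSF6 and OGT, were chosen after their values were seen. Alternatives were another pseudocount, other filters, centred libraries, the replicate block and leaving out each library.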

Additional observations from a re-analysis of the deposited data

How the results depend on the processing

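In RNA-Seq no gene was called by limma in any of the 3 contrasts under any alternative, and with the replicate number as a block the genes at an unadjusted p under 0.05 numbered 77, 254 and 67. Both assays have only 2 replicate numbers. Across genes, replicate differences in RNA-Seq correlated at 0.743 to 0.864 between groups other than DD Tg, and at 0.134 to 0.299 between DD Tg and the others. In Subunit-Seq they correlated between groups at 0.002 to 0.51. The Subunit-Seq count for IP against input under Tg was 1591. It became 447 with a pseudocount of 0.1 RPKM (355 higher, 92 lower), 408 with a filter of at least 5 RPKM, 372 with centred libraries and 36 without the replicate block (24 higher, 12 lower). Without a filter on low values 0 of 31093 genes were called, with 5563 at an unadjusted p under 0.05. Leaving out 1 library at a time gave 101 to 3227, and 14 to 324 for hosts. A group left with 1 library is assumed to vary like the others. Hosts numbered 71 with the pseudocount of 0.1 (42 higher, 29 lower), 90 of 659 with the stricter filter, 63 with centred libraries (11 higher, 52 lower) and 6 without the block. The change of the IP to input difference with Tg, 6 genes, became 0 with the pseudocount of 0.1, without a filter, with centred libraries and without the replicate block, and 0 to 15 without 1 library. All 26 named genes called for IP against input kept their sign in every alternative that gave a value, and none was called without the filter.

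The hosts' median minus the all-gene median was -0.07 for IP against input, -0.20 with the pseudocount of 0.1 and -0.45 for hosts with at least 2 of the sites. For the change with Tg it was -0.06, then -0.025 and -0.10. Hosts with at least 2 sites had a median of 15.9 RPKM. Without comparing strands, 98.0% of the sites lay in a gene and the hosts numbered 2177. The share of sites near another list was 9.93% at 10 bases and 30.6% at 200 bases, and DRACH within 5 bases 11.5%. The other 55 alternatives for the sites, hosts and counts stayed within the limit set for a change. Among the 55 were all RNA-Seq fits, where 0 called genes stayed 0. For the hosts' medians the limit was the SD between the 2 replicate numbers, which in RNA-Seq went opposite ways. A move from -0.07 to -0.22 for hosts with at least 2 sites (DD against WT under Tg) stayed inside it. Staying within such limits thus says little. The cause of the changes was not tested. Depth limits the low genes most: where a library shows 0 reads, up to 3 remain possible, and the site lists give no depth at all.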
